A study of Mus musculus with 6 samples.

Results

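Collagens, laminins and matrix glycoproteins were described as a set of 43 named genes of the extracellular matrix, taken from the 18193 genes that the arrays measured. A gene was represented by its probe set of highest mean over the 6 arrays among those annotated with exactly 1 gene symbol, and 40 of the 43 were measured in this way. Both probe sets of Loxl2 carry a further symbol, so it was left out, and Fbn1 and Spp1 were not analysed here. The measured genes fell into 15 of the basement membrane, 18 of the fibrillar and interstitial matrix and 7 adhesive and matricellular glycoproteins. The series compared 3 arrays of reactive astrocytes with 3 arrays of non-reactive astrocytes, in a study of galectin-1 and galectin-3 in the injured brain. The reactive cells came from TgN(hGFAP-EGFP) GFEA mice, whose green fluorescent protein is driven by the human GFAP promoter. They were sorted 5 days after the grey matter of the somatosensory cortex was stabbed to a depth of 0.7 mm over a length of 1 to 1.2 mm. The non-reactive cells came from the same region of uninjured Tg(Aldh1l1-eGFP)OFC789Gsat mice. All mice were FVB/N and 2 to 3 months old, each array held green fluorescent cells sorted and pooled from about 15 animals, and the sex was not determined. The treatment protocol also describes BrdU labelling and does not say whether the mice used for the arrays received it. The reporter line differs wherever the injury differs, so injury and line cannot be told apart in any value below.

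The extracellular matrix of the brain takes several forms. Basement membranes are thin sheets around blood vessels and under the pia, built from networks of collagen IV and laminin that nidogens and heparan sulfate proteoglycans tie together, and astrocyte endfeet rest on them. Fibrillar collagens, with the proteins that assemble and cross-link them, are scarce in healthy grey matter and are made mainly by fibroblasts and cells of the vessel wall, and they can be laid down in the scar of a stab wound. Fibronectin, tenascins and the matricellular proteins bind integrins and other receptors and are known to change in wounds.

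The sorted cells carried the transcripts of astrocytes on all 6 arrays: 0 of 16 astrocyte markers lay under a log2 level of 4.74 on all of them. That level, the median over the probe sets of the array, is used below to call a value dim. The mean level of these markers was 9.12 to 9.56 on the reactive and 10.54 to 11.05 on the non-reactive arrays. Gfap, which encodes the astrocyte filament protein raised after injury, rose by 3.12 (limma adjusted p = 0.0492) and was the only 1 of the 16 above 0. The bicarbonate transporter Slc4a4 fell by 2.98 (adjusted p = 0.0205). Of the 16 markers, 5 passed lower (31.2%, against 0.561% of all genes) and 1 higher (6.25%, against 0.390%). The groups did not overlap in 14 that were lower in reactive cells (87.5%, against 8.20% of all genes). Over all genes 173 passed, 0 passed without any 1 of the non-reactive arrays, and 20, 74 and 77 passed without reactive replicates 1, 2 and 3, so calls of single genes rest on the full set of arrays. Microglia and macrophage markers (19 measured) averaged 8.65 to 8.92 on the reactive and 6.51 to 6.87 on the non-reactive arrays. Of the 19, 8 passed the test higher (42.1%, against 0.390% of all genes). Oligodendrocyte and precursor markers (13) averaged 9.06 to 9.54 against 7.69 to 8.55, and blood leukocyte markers (13) 5.67 to 6.30 against 4.53 to 4.98. The median log2 difference of the blood leukocyte markers was 0.15, near the 0.12 of all genes. Of these 13 markers 3 passed the test higher (23.1%, against 0.390% of all genes), namely Lyz2, Plac8 and Cd52. The 3′ minus 5′ difference of the Gapdh control probe sets was 3.85 to 4.64 on the reactive and 4.77 to 5.74 on the non-reactive arrays. That of Actb was 2.53 to 4.27 on the reactive and 4.48 to 5.37 on the non-reactive arrays. Neither control overlapped between the groups, so this measure of RNA quality cannot be told apart from group in any difference below. The reactive arrays correlated with each other at 0.901 to 0.921, and the non-reactive arrays at 0.950 to 0.963. Reactive replicate 3 stood apart in several matrix genes, so the members whose difference it raised most are also given without it. In these bulk samples fewer cells of a type and less RNA per cell cannot be told apart.

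The promoters of 4 members are shown because their transcripts carry the 2 patterns described below. Col1a2, Col3a1 and Tgfbi were high on reactive replicate 3 alone or most, while Bgn was higher on all reactive arrays. The 250 bases before each annotated start (RefSeq, GRCm38.p6, plus strand, 5′ to 3′) were read at chr6:4505368-4505617, chr1:45311288-45311537, chr13:56609336-56609585 and chrX:73483351-73483600. Capitals mark 3 motifs, each searched on both strands. The CCAAT box was searched as its 5 letters. The TATA box was searched as TATAAA. The GC box was searched as GGGCGG, which reads CCGCCC on the other strand.
Col1a2: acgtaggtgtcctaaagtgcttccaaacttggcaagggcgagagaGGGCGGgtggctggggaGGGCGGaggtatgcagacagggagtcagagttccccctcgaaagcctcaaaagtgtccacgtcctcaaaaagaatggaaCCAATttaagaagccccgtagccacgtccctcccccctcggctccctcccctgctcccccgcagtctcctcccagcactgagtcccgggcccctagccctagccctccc
Col3a1: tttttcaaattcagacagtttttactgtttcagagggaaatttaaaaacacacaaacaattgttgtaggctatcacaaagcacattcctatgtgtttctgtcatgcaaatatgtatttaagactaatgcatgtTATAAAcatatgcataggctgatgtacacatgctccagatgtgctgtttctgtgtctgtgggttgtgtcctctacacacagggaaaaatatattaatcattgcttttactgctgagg
Tgfbi: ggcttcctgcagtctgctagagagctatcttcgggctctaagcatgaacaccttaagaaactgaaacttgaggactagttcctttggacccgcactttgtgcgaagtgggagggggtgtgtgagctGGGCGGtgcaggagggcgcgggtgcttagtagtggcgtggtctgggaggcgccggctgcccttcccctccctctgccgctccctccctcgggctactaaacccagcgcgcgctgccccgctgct
Bgn: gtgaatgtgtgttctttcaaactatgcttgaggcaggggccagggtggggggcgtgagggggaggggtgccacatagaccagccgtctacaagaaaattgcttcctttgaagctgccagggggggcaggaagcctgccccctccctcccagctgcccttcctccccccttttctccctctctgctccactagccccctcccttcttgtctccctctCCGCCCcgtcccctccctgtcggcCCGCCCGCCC
The Col1a2 window held 1 CCAAT box and 2 GC boxes, the Col3a1 window 1 TATA box, the Tgfbi window 1 GC box, and the Bgn window 3 GC boxes on the other strand, with the last 2 overlapping. Col1a2 and Tgfbi each held a GC box, and none of the 3 motifs was in the windows of all 3 genes that were high on reactive replicate 3. Promoter windows were found for 26 of the 40 measured members. A GC box was in a window of 18 of the 26 (32.7% of the 32851 windows in the table, all cut to the same 250 bases), a CCAAT box in 7 (33.8% of all) and a TATA box in 4 (12.4% of all). Members with more than 1 annotated start were counted once if any window held the motif, and the 26 had 33 windows. The shares of all count single windows, so the member counts and these shares are not in the same unit. A match describes letters, not binding.

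None of the 40 matrix genes passed the comparison of reactive with non-reactive astrocytes in either direction. Over all genes limma called 0.390% higher and 0.561% lower in reactive cells at a Benjamini-Hochberg adjusted p under 0.05, so 0 of 40 lies near that background. At an unadjusted p under 0.05, 4 of 40 members were higher (10.0%, against 7.88% of all genes), namely Col18a1, Nid1, Bgn and Fn1. Another 2 of 40 were lower at that limit (5.00%, against 7.13% of all genes), namely Lama2 and Lamb2. Reactive and non-reactive arrays had no overlap in 6 members that were higher in reactive cells (15.0%, against 13.5% of all genes) and for 1 that was lower (2.50%, against 8.20%). The first 3 shares lie near those of all genes, and the last lies below. The median log2 difference over the 40 members was 0.39, beside 0.12 over all genes, and 0.07 beside 0.11 without reactive replicate 3. Bgn had the smallest limma adjusted p of the members, 0.0870.

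**Figure D1:**
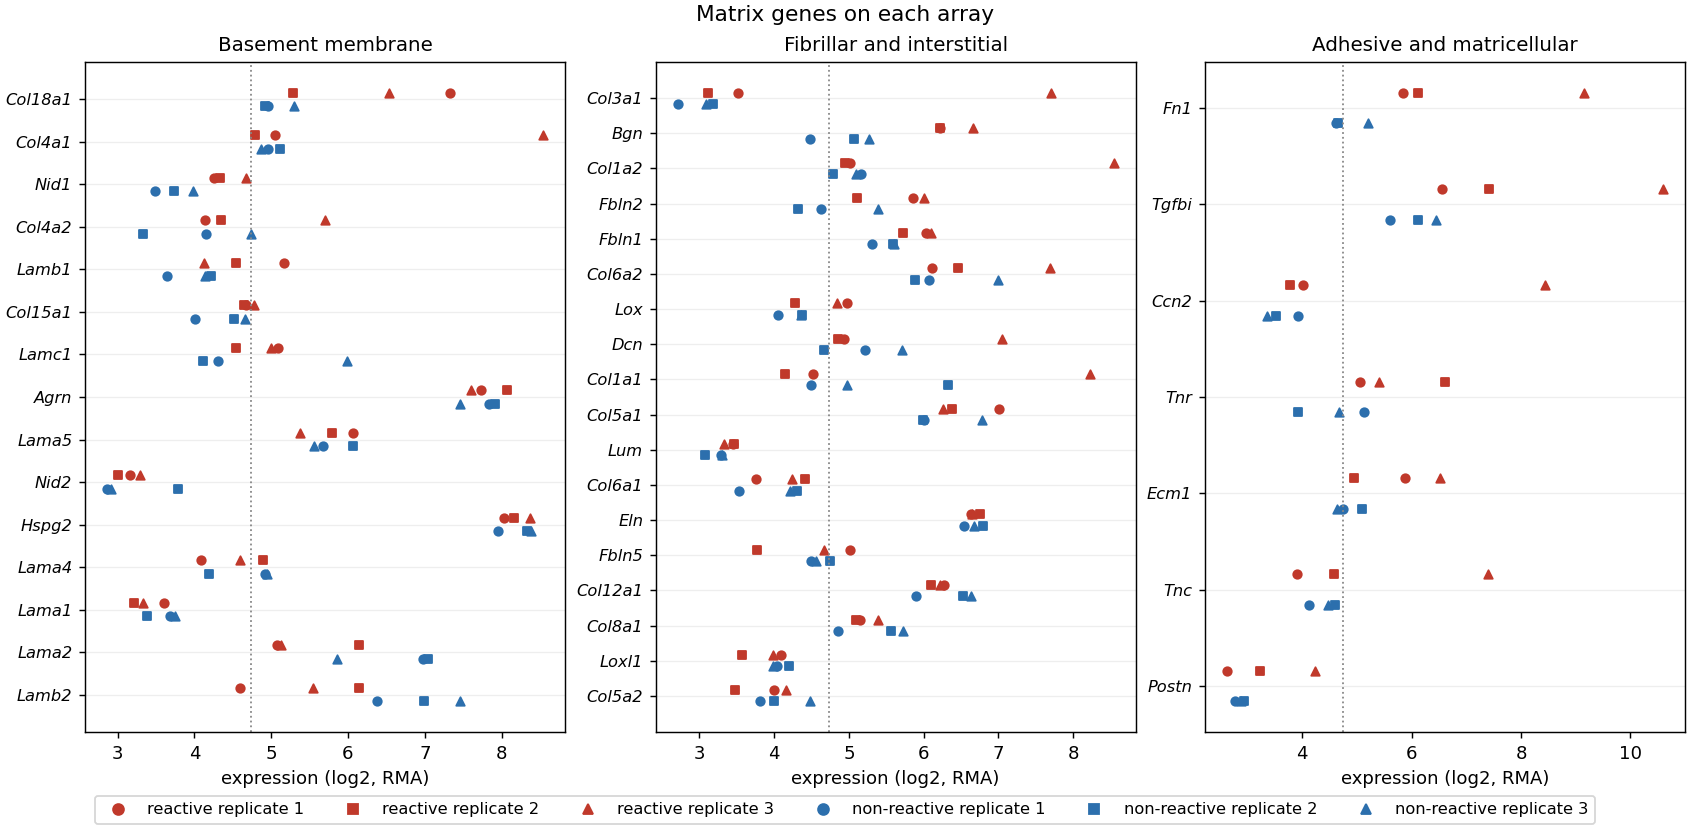
Expression (log2, RMA) of the 40 measured matrix genes on each array, in 3 panels by role and sorted by the difference between the groups. Red points are the reactive and blue points the non-reactive arrays, the shape gives the replicate, and the dotted line is the median of all probe set means, 4.74. Reactive replicate 3 (red triangles) lies far to the right for Col3a1, Col1a2, Col4a1, Fn1, Tgfbi, Ccn2 and Tnc.

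Among the basement membrane genes, 2 laminin chains were lower in reactive cells and 2 other components were higher, each at an unadjusted p only. Lamb2, the laminin beta 2 chain of vascular and synaptic basement membranes, measured 4.60, 6.14 and 5.54 on the reactive and 6.38, 6.98 and 7.46 on the non-reactive arrays. All 3 reactive arrays lay below all 3 non-reactive ones. The log2 difference was -1.52 (SE 0.46, 95% interval -2.61 to -0.43, limma unadjusted p = 0.0137, adjusted p = 0.235), and -1.57 without reactive replicate 3. Lama2, the alpha 2 chain of the laminin that astrocytes contribute to the parenchymal border of vessels, measured 5.07, 6.14 and 5.13 on the reactive and 6.97, 7.04 and 5.86 on the non-reactive arrays. Reactive replicate 2 lay above the lowest non-reactive array, so the groups overlapped. Its log2 difference was -1.18 (SE 0.44, interval -2.22 to -0.13, adjusted p = 0.328).

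The other laminin chains had no limma unadjusted p under 0.05 over the 6 arrays. Lamc1, the gamma 1 chain shared by most laminins, differed by 0.07 (SE 0.51), with 1 high non-reactive array at 5.99. Lama5 differed by -0.02, Lama4 by -0.16 and Lama1 by -0.22. Lamb1, the beta 1 chain, differed by 0.61 (SE 0.32). Without reactive replicate 3 the Lamb1 difference was larger, at 0.85 (limma unadjusted p = 0.0352, adjusted p = 0.321). The other Lamb1 probe sets differed by 0.60, 0.58 and -0.006 over all arrays. Lama1 lay below 4.74 on every array. Averaging both Lama4 probe sets gave 0.23, of the opposite sign.

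Col18a1, a basement membrane collagen whose end fragment is endostatin, measured 7.33, 5.29 and 6.53 on the reactive and 4.96, 4.92 and 5.30 on the non-reactive arrays. Reactive replicates 1 and 3 lay above every non-reactive array, and replicate 2 lay just under the highest of them. The log2 difference was 1.33 (SE 0.50, interval 0.13 to 2.53, limma unadjusted p = 0.0342, adjusted p = 0.334). A further Col18a1 probe set differed by only 0.29 (SE 0.28), and the mean of both by 0.81. Nid1, nidogen 1, which bridges laminin and collagen IV, measured 4.26, 4.34 and 4.67 on the reactive and 3.48, 3.74 and 3.99 on the non-reactive arrays. The groups did not overlap (log2 difference 0.69, SE 0.23, adjusted p = 0.282), but all 6 values lay below 4.74 and its 2 other probe sets differed by 0.08 and 0.04. Nid2 differed by -0.04 and lay below 4.74 on all arrays.

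Perlecan and agrin, the heparan sulfate proteoglycans of basement membranes, were bright on every array and showed no difference beyond the spread between arrays. Hspg2, which encodes perlecan, measured 8.03, 8.16 and 8.37 on the reactive and 7.95, 8.33 and 8.38 on the non-reactive arrays. The 95% interval of its difference, -0.04, ran from -0.55 to 0.48. Agrn, which encodes agrin, a component of the matrix at astrocyte endfeet, measured 7.73, 8.08 and 7.60 on the reactive and 7.83, 7.92 and 7.46 on the non-reactive arrays. Its difference of 0.07 had an interval of -0.49 to 0.63. The intervals of both leave differences of more than 2-fold outside.

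Both collagen IV members were highest on reactive replicate 3. Col4a1 measured 5.05, 4.79 and 8.54 on the reactive and 4.96, 5.12 and 4.87 on the non-reactive arrays. Reactive replicate 1 lay within the non-reactive range and replicate 2 just below it, and replicate 3 lay 3.50 above the higher of them. Col4a2, its partner chain in the same collagen molecule, measured 4.14, 4.34 and 5.70 on the reactive and 4.15, 3.34 and 4.74 on the non-reactive arrays, again highest on reactive replicate 3. The differences were 1.14 (SE 0.95) for Col4a1 and 0.66 (SE 0.52) for Col4a2, and -0.06 and 0.17 without that array. Col15a1 differed by 0.31 (SE 0.24). The median over the 15 basement membrane genes was 0.07, and 8 of the 15 were above 0 (53.3%, against 60.7% of all genes).

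In the fibrillar and interstitial matrix, Bgn was the member with the most even difference. Bgn encodes biglycan, a small leucine-rich proteoglycan that binds collagen fibrils and can signal through Toll-like receptors when released. It measured 6.22, 6.22 and 6.66 on the reactive and 4.48, 5.07 and 5.27 on the non-reactive arrays, so every reactive array lay above every non-reactive one. The mean was 6.37 ± 0.25 in reactive and 4.94 ± 0.41 in non-reactive cells (log2, SD, n = 3 each). That is a 2.69-fold difference (log2 1.43, SE 0.28, interval 0.77 to 2.09, limma unadjusted p = 0.0015), which missed the adjusted threshold at 0.0870. Without reactive replicate 3 the log2 difference was 1.28. The other 2 Bgn probe sets differed by 1.24 (SE 0.34) and 0.78 (SE 0.25), and neither overlapped between the groups.

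Its relatives did not share this pattern. Dcn, decorin, measured 4.93, 4.86 and 7.05 on the reactive and 5.22, 4.67 and 5.71 on the non-reactive arrays, with only reactive replicate 3 outside the non-reactive range. Its difference was 0.41 (SE 0.63), and -0.31 without that array. Lum, lumican, differed by 0.19 (SE 0.19) and lay below 4.74 on all 6 arrays, although its groups did not overlap.

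The chains of type I and type III collagen were high on reactive replicate 3. Col3a1, the type III collagen chain, measured 3.52, 3.12 and 7.70 on the reactive and 2.71, 3.18 and 3.09 on the non-reactive arrays. Col1a2, a chain of type I collagen, measured 5.01, 4.95 and 8.54 on the reactive and 5.17, 4.79 and 5.09 on the non-reactive arrays. Col1a1, its partner chain, measured 4.53, 4.14 and 8.22 on the reactive and 4.50, 6.33 and 4.98 on the non-reactive arrays. In each, reactive replicate 3 stood at least 3.53 above the other reactive arrays, and for Col1a1 non-reactive replicate 2 was also high. The group differences were 1.79 (SE 1.15) for Col3a1, 1.15 (SE 0.94) for Col1a2 and 0.36 (SE 1.11) for Col1a1, and the limma adjusted p values were 0.546, 0.624 and 0.905. Without reactive replicate 3 they were 0.32, -0.03 and -0.94.

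Other collagens of this group moved little. Col6a2, of the beaded filaments of collagen VI, measured 6.12, 6.46 and 7.69 on the reactive and 6.07, 5.88 and 6.99 on the non-reactive arrays, a difference of 0.44 (SE 0.49), and of -0.03 without reactive replicate 3. Col5a1, of collagen V, which starts and limits fibrils, measured 7.01, 6.38 and 6.26 on the reactive and 6.00, 5.99 and 6.78 on the non-reactive arrays, a difference of 0.29 (SE 0.32). Another Col5a1 probe set was at 7.48 on reactive replicate 3 and at 4.06 to 5.11 on the other 5 arrays. Col5a2 differed by -0.22, Col6a1 by 0.12, Col8a1 by -0.16 and Col12a1 by -0.16, each with an SE of 0.25 to 0.30.

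No elastic fibre or cross-linking gene had a limma unadjusted p under 0.05, and Fbln2 differed most among them. Eln, elastin, measured 6.64, 6.76 and 6.64 on the reactive and 6.55, 6.80 and 6.68 on the non-reactive arrays, a difference of 0.005 with an interval of -0.44 to 0.45. Fbln2, a fibulin of vessel walls, differed by 0.88 (SE 0.37) while Fbln5 differed by -0.12. Fbln1, which did not overlap between the groups, differed by 0.46 (SE 0.21), or by 0.18 when its 3 probe sets were averaged. Lox, lysyl oxidase, which cross-links collagen and elastin, differed by 0.44 (SE 0.25), and its relative Loxl1 by -0.19 (SE 0.22). The median over the 18 genes was 0.33, with 13 of 18 above 0, and it was -0.002 without reactive replicate 3.

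The adhesive and matricellular glycoproteins had the highest median of the 3 groups, and all 7 were above 0 (100%, against 60.7% of all genes). Reactive replicate 3 was the highest of the 6 arrays for 6 of the 7 (85.7%, against 22.6% of all genes). Fn1, fibronectin, measured 5.84, 6.12 and 9.15 on the reactive and 4.61, 4.65 and 5.21 on the non-reactive arrays. Every reactive array lay above every non-reactive one, and replicate 3 lay 3.04 above the next. The log2 difference was 2.21 (SE 0.85, interval 0.18 to 4.25), or 4.63-fold, with a limma unadjusted p of 0.0373 and an adjusted p of 0.342. Without reactive replicate 3 it was 1.15, with an unadjusted p of 0.00652 and an adjusted p of 0.161. A further Fn1 probe set, which lay below 4.74 on all arrays, differed by 0.91 (SE 0.27) without overlap.

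Tgfbi, a secreted adhesion protein induced by transforming growth factor beta and made by macrophages among other cells, measured 6.55, 7.42 and 10.59 on the reactive and 5.61, 6.12 and 6.44 on the non-reactive arrays. The groups did not overlap, and reactive replicate 3 was 3.18 above the next array. The difference was 2.13 (SE 0.98, adjusted p = 0.418), and 0.93 without that array. Its other 3 probe sets differed by 0.74, 3.22 and 3.48, and the last of these overlapped between the groups. Beside Fn1 and Tgfbi stand the microglia and macrophage markers, at 8.65 to 8.92 on the reactive and 6.51 to 6.87 on the non-reactive arrays, whose part in these differences was not tested.

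Ccn2, connective tissue growth factor, a target of mechanical and TGF-beta signals, measured 4.01, 3.78 and 8.44 on the reactive and 3.91, 3.52 and 3.36 on the non-reactive arrays. Tnc, tenascin C, a glycoprotein of developing and injured tissue, measured 3.91, 4.58 and 7.39 on the reactive and 4.13, 4.60 and 4.47 on the non-reactive arrays. Both were high on reactive replicate 3 alone, with differences of 1.82 (SE 1.19) and 0.90 (SE 0.85), and of 0.30 and -0.15 without it.

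Ecm1, a secreted glycoprotein that binds perlecan and fibulin, measured 5.88, 4.94 and 6.52 on the reactive and 4.74, 5.09 and 4.64 on the non-reactive arrays, a difference of 0.96 (SE 0.41, adjusted p = 0.383), and of 0.59 without reactive replicate 3. Reactive replicate 2 lay within the non-reactive range. Tnr, tenascin R, a component of perineuronal nets made largely by oligodendrocytes, measured 5.06, 6.61 and 5.41 on the reactive and 5.14, 3.92 and 4.67 on the non-reactive arrays, a difference of 1.12 (SE 0.49, adjusted p = 0.394). Its highest value was on reactive replicate 2, and the groups overlapped. The oligodendrocyte and precursor markers beside it averaged 9.06, 9.21 and 9.54 on the reactive and 7.87, 7.69 and 8.55 on the non-reactive arrays, and their part was not tested. Postn, periostin, differed by 0.50 (SE 0.41), or 0.06 without reactive replicate 3, and lay below 4.74 throughout. The median over the 7 genes was 1.12, and 0.59 without reactive replicate 3.

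**Figure D2:**
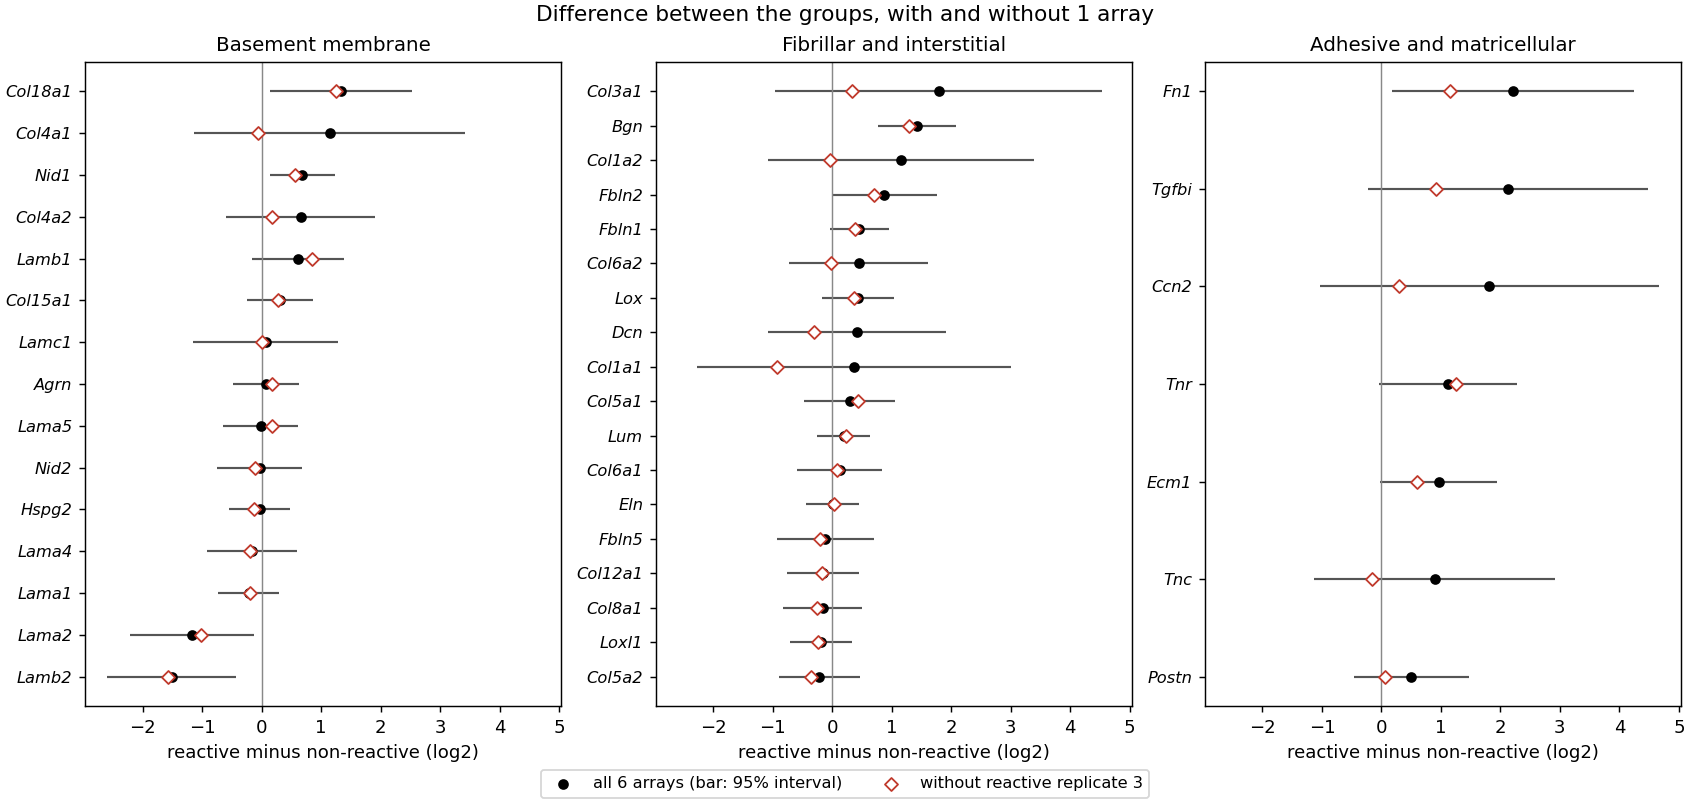
Log2 difference, reactive minus non-reactive, for each matrix gene over all 6 arrays (black, with the 95% limma interval) and without reactive replicate 3 (open red diamonds). Bgn stays at 1.28 and Lamb2 at -1.57 without that array, while Col4a1, Col1a2 and Tnc move to -0.06, -0.03 and -0.15.

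Reactive replicate 3 was the highest of the 6 arrays for 18 of the 40 members (45.0%, against 22.6% of all genes). By a limit chosen after the values were seen, it lay more than 2 (log2) above both other reactive arrays for 9 of 40 members (22.5%, against 1.37% of all genes). These were Col4a1, Col1a1, Col1a2, Col3a1, Dcn, Fn1, Tnc, Tgfbi and Ccn2. No member stood out in this way on reactive replicate 1 or 2 or on any non-reactive array, where 0.0660% to 0.929% of all genes did. Because the limit and the members were both set with these values known, the comparison with all genes is a description.

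Some vascular transcripts were high on the same array. By the same limit, 3 of 15 endothelial markers stood out there, namely Cldn5, Kdr and Abcb1a (20%, against 1.37% of all genes). Slc2a1, the endothelial marker of highest mean, measured 8.98, 8.67 and 10.14 on the reactive and 9.36, 9.92 and 9.94 on the non-reactive arrays. The 15 endothelial markers averaged 4.64, 4.49 and 5.66 on reactive replicates 1, 2 and 3 and 4.35, 4.68 and 4.55 on the non-reactive arrays. Cldn5, the tight junction claudin of brain endothelium, measured 5.45, 5.53 and 9.36 on the reactive and 4.51, 5.61 and 5.22 on the non-reactive arrays, and the drug transporter Abcb1a measured 3.35, 3.83 and 7.81 on the reactive and 3.24, 3.31 and 3.56 on the non-reactive arrays. Of the defining endothelial markers, Pecam1, Tek, Tie1, Emcn, Erg and Ocln lay below 4.74 on every array.

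The 13 pericyte and smooth muscle markers averaged 4.99, 5.20 and 5.70 on the reactive and 5.09, 5.27 and 5.28 on the non-reactive arrays. Only 3 of the 13 were highest on reactive replicate 3 (23.1%, near the 22.6% of all genes), and 1, Acta2, stood more than 2 above both other reactive arrays. Acta2, smooth muscle actin, measured 5.39, 5.28 and 8.63 on the reactive and 5.28, 4.56 and 5.39 on the non-reactive arrays, whereas Pdgfrb, a pericyte receptor, measured 4.60, 7.68 and 6.84 on the reactive and 8.18, 9.41 and 8.24 on the non-reactive arrays. The 20 fibroblast and leptomeningeal markers averaged 4.99, 4.63 and 4.93 on the reactive and 4.73, 4.85 and 4.93 on the non-reactive arrays, and 9 of them, Dpt, Foxc1 and Twist1 included, lay below 4.74 on every array. In that list 7 of 20 were highest on reactive replicate 3 (35.0%, against 22.6% of all genes), while 0 of 20 stood more than 2 above both other reactive arrays. Among the 7 was Slc6a13, a transporter of leptomeningeal fibroblasts, named after its values were seen. It measured 4.38, 3.93 and 5.99 on the reactive and 3.92, 3.82 and 4.15 on the non-reactive arrays. The 2 markers of largest difference, Pdpn (-1.45) and Cygb (-1.15), were lower in reactive cells without overlap. Cygb was lowest on reactive replicate 3, at 4.37. Slc13a3, the marker of highest mean, differed by 0.11. The part of vascular or fibroblast cells in the matrix values of reactive replicate 3 was not tested.

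**Figure D3:**
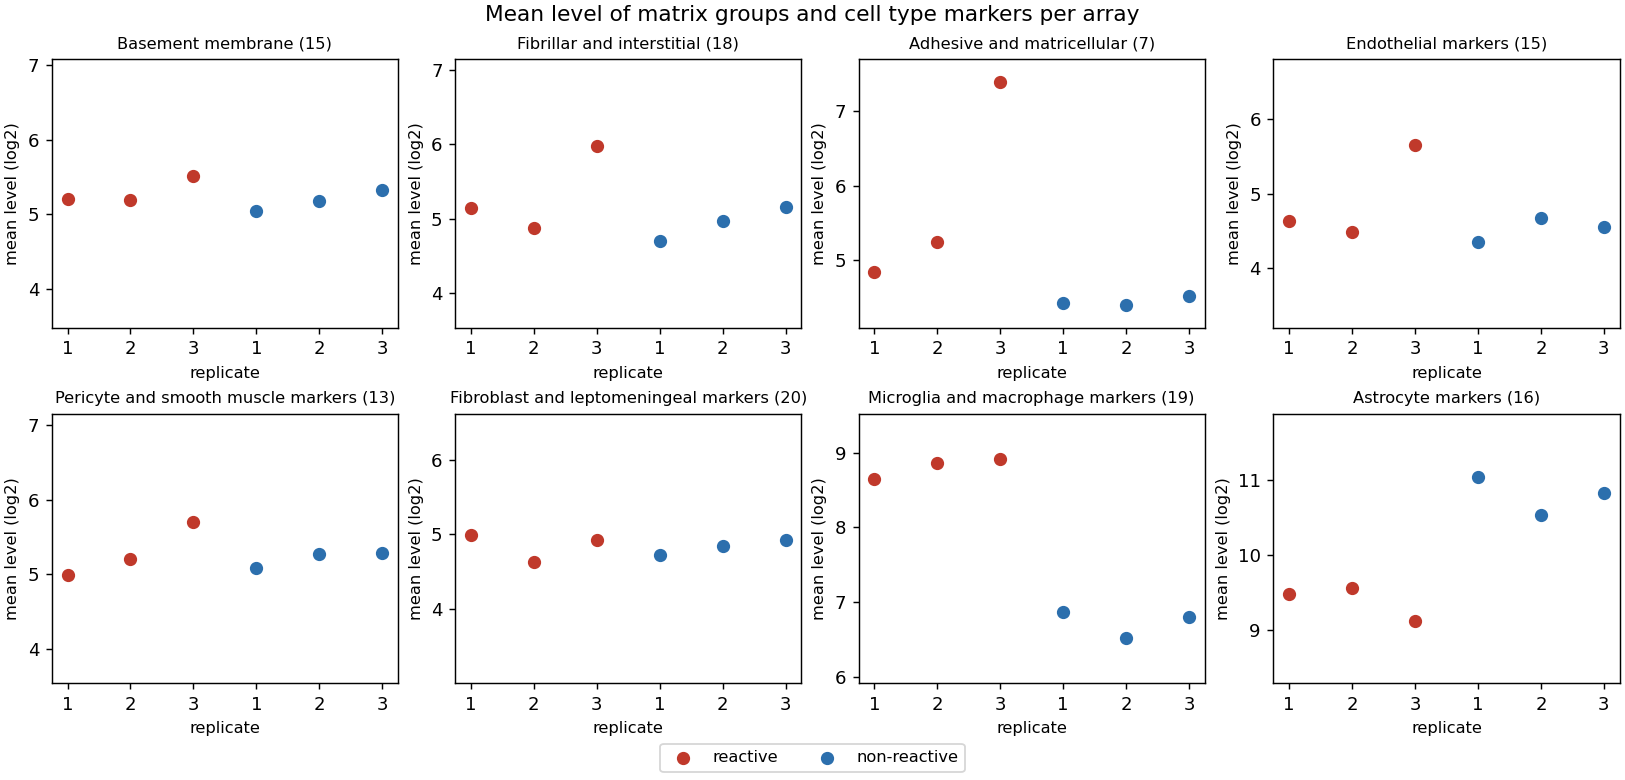
Mean level (log2) per array of the 3 groups of matrix genes and of the markers of 5 cell types, with the number of genes in brackets and axes of equal length in every panel. Reactive arrays are red and non-reactive arrays blue. The adhesive group (7.39), the fibrillar group (5.98) and the endothelial markers (5.66) are highest on reactive replicate 3. By smaller margins, so are the basement membrane group (5.51), the pericyte and smooth muscle markers (5.70) and the microglia and macrophage markers (8.92). The fibroblast markers there (4.93) lie within the range of the other arrays, and the astrocyte markers are lowest there (9.12).

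The probe sets of a gene did not always agree. Of the 28 members with more than 1 probe set, 17 had differences of the same sign in all of them. For Col1a2, a second probe set repeated the pattern at 6.53 on reactive replicate 3 and 3.31 to 3.97 on the other 5 arrays, while its remaining probe set lay between 2.54 and 2.95 on all 6. The other Col4a1 probe set was at 6.70 on reactive replicate 3 and 4.34 to 4.91 elsewhere. A Lamb1 probe set other than the chosen one was at 6.21 on reactive replicate 3 and 2.88 to 3.995 elsewhere. The second probe sets of Col3a1, Col1a1, Tnc and Dcn lay below 4.74 on all arrays and were at 3.88, 3.58, 2.84 and 2.81 on reactive replicate 3. By that probe set the difference of Col3a1 was 0.38 (SE 0.34), against 1.79 by the brighter one. Across the members, 8 of 40 lay below 4.74 on all 6 arrays, where the size of a difference is uncertain, and 14 lay above it on all 6.

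**Figure D4:**
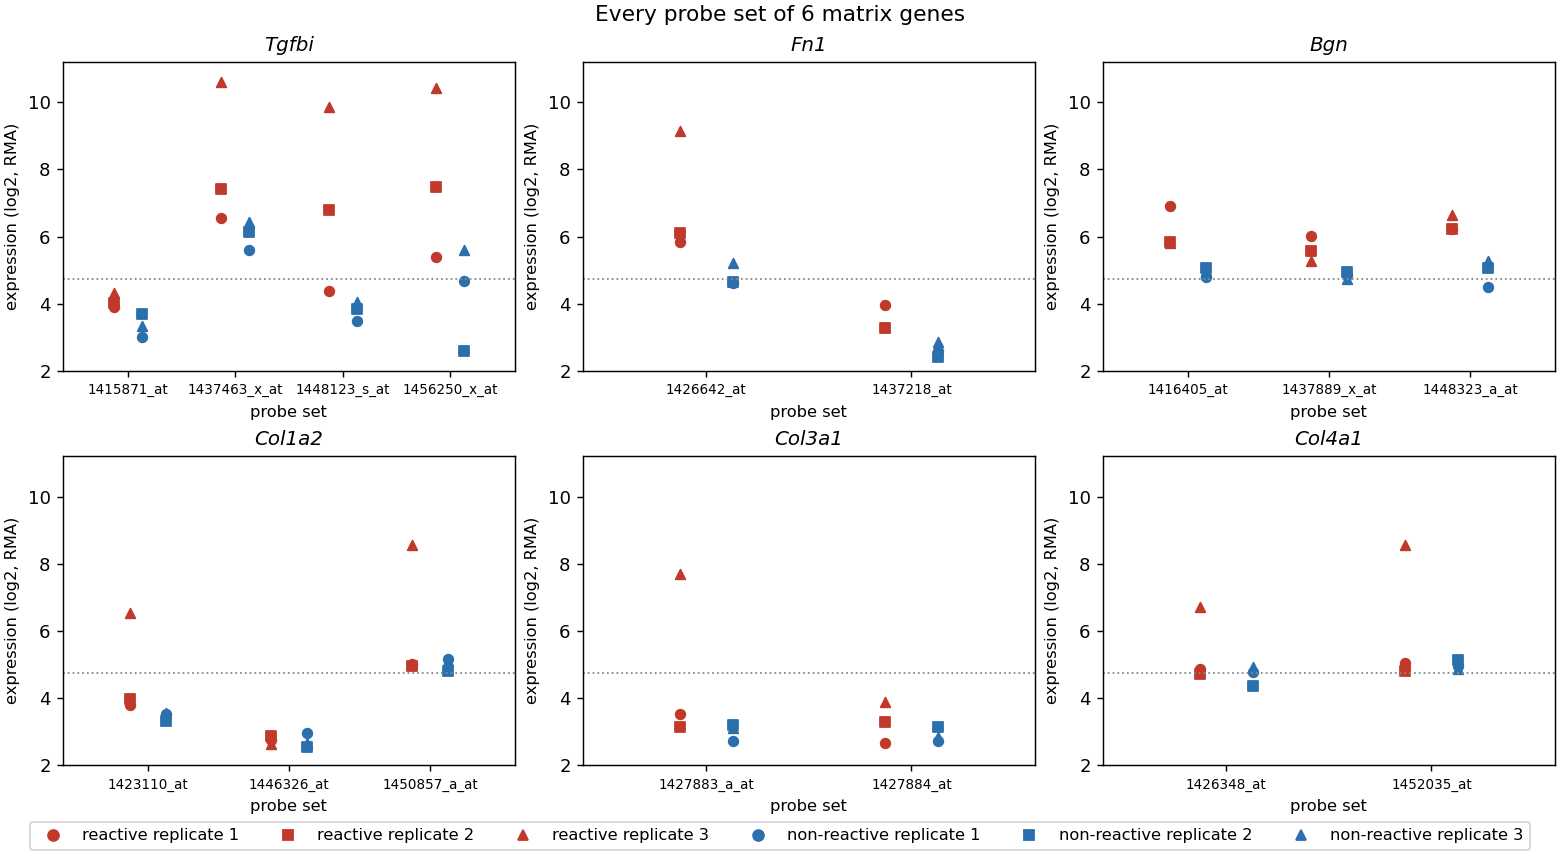
Expression (log2, RMA) of every probe set of Tgfbi, Fn1, Bgn, Col1a2, Col3a1 and Col4a1 on each array, red for reactive and blue for non-reactive, with the replicate by shape and the dotted line at 4.74. All 3 Bgn probe sets separate the groups, whereas reactive replicate 3 (triangles) lies 3.53 above the other reactive arrays in the brightest probe set of Col1a2 and 3.50 above them in that of Col4a1.

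Other genes of matrix synthesis and adhesion were read from the same fit. Of 29 other collagens, 1 rose (3.45%, against 0.390% of all genes) and 0 fell (against 0.561%). Col22a1, a collagen of tissue junctions, measured 6.96, 6.11 and 6.27 on the reactive and 4.56, 4.42 and 4.697 on the non-reactive arrays, without overlap. It rose by 1.89 (SE 0.28, limma adjusted p = 0.0456), but its probe sets averaged to a difference of 0.44 (adjusted p = 0.472). The call was lost without any 1 of the 6 arrays, with differences of 1.63 to 2.06 and adjusted p values of 0.0623 to 0.170. At an unadjusted p under 0.05, 7 of the 29 were higher (24.1%, against 7.88% of all genes) and 1 was lower (3.45%, against 7.13%). Col27a1, the one of highest mean, differed by -0.31 (SE 0.28). Of 9 other laminins, netrins and further basement membrane genes none passed (limma, 0 also at an unadjusted p under 0.05). In that list the laminin chain Lamc3 differed by 0.49, Smoc2, a calcium-binding matrix protein, by -0.53 and the netrin Ntn4 by -0.38. Of 25 genes of collagen synthesis and processing none passed. At an unadjusted p under 0.05, 2 were higher (8%, against 7.88% of all genes) and 1 was lower (4%, against 7.13%). Pcolce2, an enhancer of procollagen processing, measured 6.10, 5.90 and 5.61 on the reactive and 4.72, 3.86 and 3.54 on the non-reactive arrays, a difference of 1.83 (SE 0.34, adjusted p = 0.0800). P4ha1, a prolyl hydroxylase subunit that stabilises the collagen triple helix, measured 6.26, 6.00 and 5.96 on the reactive and 7.40, 6.80 and 6.93 on the non-reactive arrays (difference -0.97, SE 0.24, adjusted p = 0.146). P4hb, the partner subunit, differed by 0.73 (SE 0.48).

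Among 27 receptors for collagen, laminin and fibronectin, 1 fell (3.7%, against 0.561% of all genes) and 0 rose (against 0.390%). Sdc4, syndecan 4, a heparan sulfate coreceptor for fibronectin, measured 9.77, 9.45 and 10.02 on the reactive and 12.24, 11.49 and 11.46 on the non-reactive arrays, and fell by 1.98 (SE 0.29, limma adjusted p = 0.0462). This call too was lost without any 1 array, with differences of -1.73 to -2.12 and adjusted p values of 0.0685 to 0.137. It was also lost with array weights (0.0521), robust variances (0.0502) and median centring (0.0522), and its brightest probe set whose name carries no mark of shared sequence differed by -0.71 (adjusted p = 0.577). At an unadjusted p under 0.05 the list held 6 that were lower and 2 that were higher in reactive cells, against 7.13% and 7.88% of all genes. The lower ones included Dag1, dystroglycan, the laminin and agrin receptor of astrocyte endfeet, named after its values were seen. Dag1 measured 7.89, 8.39 and 8.67 on the reactive and 9.25, 10.12 and 10.03 on the non-reactive arrays (difference -1.48, SE 0.33, adjusted p = 0.117). The 2 higher ones were Lair1 and Cd44, the latter picked with its values known. Cd44 measured 7.01, 6.56 and 8.96 on the reactive and 4.31, 5.71 and 5.56 on the non-reactive arrays, without overlap. Its difference was 2.32 (SE 0.69, adjusted p = 0.228), or 1.59 without reactive replicate 3 and 0.96 averaged over its probe sets. The median difference over the 27 receptors was 0.21, with 19 of 27 above 0 (70.4%, against 60.7% of all genes). Of 31 other matrix glycoproteins, 1 fell (3.23%, against 0.561% of all genes) and 0 rose (against 0.390%). At an unadjusted p under 0.05, 2 of the 31 were lower (6.45%, against 7.13%) and 1 was higher (3.23%, against 7.88%). Ccn1, a matricellular relative of Ccn2, measured 3.56, 4.19 and 4.51 on the reactive and 7.98, 8.15 and 8.98 on the non-reactive arrays (adjusted p = 0.0199). Its difference was -4.28 (SE 0.37), or -2.67 averaged over its probe sets (adjusted p = 0.0529). Without non-reactive replicate 1, 2 or 3 the adjusted p was 0.0620, 0.0701 or 0.0582, so the call was lost, and without a reactive array it was at most 0.0494. All reactive values of Ccn1 were dim. Sparc, a collagen-binding protein, measured 10.73, 10.91 and 11.64 on the reactive and 10.54, 10.67 and 11.31 on the non-reactive arrays, a difference of 0.25 (SE 0.33).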

How the data were processed

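The 6 arrays, 3 of reactive and 3 of non-reactive sorted cortical cells, were grouped by their labels. The deposited values are log2 expression per probe set made by the authors with RMA, per the submitters' processing notes; no version or setting is named there. RMA scales arrays to one distribution, so a change in total RNA per cell is hidden, and array medians lay between 4.65 and 4.73. After 64 control probe sets were left out, 45037 were tested, reactive minus non-reactive, without covariates, by linear models with moderated errors (limma 3.58.1, R 4.3.3). The two-sided p-values of all 45037 were adjusted by the Benjamini-Hochberg method, with a threshold of 0.05. Errors are moderated standard errors and intervals are 95%. Precision is limited by the number of arrays, and p-values measure the spread between pools of animals. The platform annotation gave 1 symbol to 34945 probe sets, several to 932 and none to 9160, and the gene identifiers of all 40 measured members matched a gene table of GRCm38.p6. Lists are described by counts and medians.

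The members, their 3 groups, the pathway lists and the cell type markers were chosen with earlier results of these data known. Every measured member is named. Values per array are given for those at an unadjusted p under 0.05, the 3 of highest mean and the 3 of largest difference in each group, and, chosen after the values were seen, for Col4a1, Col4a2, Col1a1, Dcn, Tnc and Tnr. From each pathway list come the genes past the threshold, otherwise the 2 of smallest p, and the 1 of highest mean. From each marker list the rule took the 2 of largest difference and the 1 of highest mean, of which those beside a matrix result are printed. Alternatives were the replicate number as a block, 3 scalings, 3 variance models, a filter on dim probe sets, 2 choices of probe set and each array left out in turn. The fit was tested on simulated data.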

Additional observations from a re-analysis of the deposited data

How the results depend on the processing

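No matrix gene passed the adjusted threshold under any of the 16 alternatives. The smallest adjusted p of a member by limma ran from 0.0619 (Bgn, probe sets averaged) to 0.239 (Bgn, without non-reactive replicate 2). Over all genes 173 passed, against 0 to 77 when 1 array was left out. The pathway lists held 3 calls, against 0 to 2 with 1 array left out and 1 with the mean of each gene's probe sets. The labels do not say whether the replicate numbers pair the arrays. Deviations from the group means of same-number arrays correlated at -0.073, -0.107 and 0.037. With 3 arrays per group these values cannot decide whether such arrays shared a batch. With the replicate block 0 genes passed, 0 of them on the pathway lists, although 2401 had an unadjusted p under 0.05 and Bgn an adjusted p of 0.162. Of the 40 members, 22 kept their sign in all 16 alternatives, and 18 changed it in at least 1, none of them called. Col4a1, Lama5, Col1a1, Col1a2, Col6a2, Dcn and Tnc did so without reactive replicate 3. Leaving out non-reactive replicate 1 gave a basement membrane median of -0.04. The members with an unadjusted p under 0.05 numbered 6, and 2 to 10 across the alternatives, with 3, 2 and 5 without non-reactive replicates 1, 2 and 3, and 10 without reactive replicate 2. A filter on dim probe sets kept 24 of the 40 members. Dim signal limits the 16 members whose mean lay below 4.74.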

Other observations

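Genes of collagen synthesis also tended to be highest on reactive replicate 3, at 11 of 25 measured (44.0%, against 22.6% of all genes), a count read after the values were seen. Serpinh1, the collagen chaperone of the endoplasmic reticulum, measured 6.12, 6.88 and 8.44 on the reactive and 7.37, 7.19 and 7.06 on the non-reactive arrays, so the other reactive arrays lay below the non-reactive ones. P3h3 and Crtap, which act in collagen prolyl hydroxylation, stood more than 2 (log2) above both other reactive arrays there. Ccn4, a matricellular relative of Ccn2, measured 5.33, 5.29 and 8.83 on the reactive and 5.39, 5.40 and 5.39 on the non-reactive arrays.

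Of the 15 endothelial markers 10 were highest on that array (66.7%), and of the 13 pericyte and smooth muscle markers 3 (23.1%), against 22.6% of all genes. The genes that follow were chosen after their values were seen. Kdr, the endothelial receptor for vascular endothelial growth factor, measured 6.29, 5.87 and 8.73 on the reactive and 5.86, 5.41 and 6.07 on the non-reactive arrays. Vwf, von Willebrand factor, measured 3.43, 3.49 and 5.47 on the reactive and 3.36, 3.17 and 3.12 on the non-reactive arrays. Tagln, a smooth muscle actin-binding protein, measured 5.97, 5.51 and 7.39 on the reactive and 4.85, 4.90 and 5.15 on the non-reactive arrays, where the groups did not overlap. Others did not follow it: Emcn, endomucin, was at 2.89, 2.92 and 2.57 on the reactive and 2.92 to 3.04 on the non-reactive arrays, and Pecam1, an endothelial adhesion molecule, at 3.54, 3.01 and 3.56 on the reactive and 2.85 to 3.28 on the non-reactive arrays. The part of vascular or other cells in these values was not tested.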
